A study of Mus musculus with 6 samples.

Results

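The genes described here are 40 genes of nucleolar ribosome biogenesis, given as a list of symbols and matched by symbol to the gene identifiers of the count tables. All 40 were found among 54146 gene rows, and all were kept whatever their change. They were measured by paired-end RNA sequencing in tumors of 4T1 cells, a mouse mammary carcinoma line, with 3 libraries from wild-type cells and 3 from Ki-67 knockout cells (Mki67-/-), the protein being a nuclear antigen of dividing cells. Cells of both groups had grown for 3 weeks as orthotopic tumors in nude mice, in the mammary fat pad. Nude mice lack a thymus and so most T cells, but keep natural killer cells and macrophages, and host RNA is counted together with tumor RNA because both are mouse. The labels give neither the age and sex of the animals nor the number of knockout clones, so a difference between clones cannot be told apart from the knockout. The libraries are labelled as replicates without a statement that each came from its own animal. The p-values below therefore measure the spread between these libraries, which may be partly technical.

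Ribosomes are assembled in the nucleolus. RNA polymerase I transcribes a long precursor, which small nucleolar RNAs (snoRNAs) and their proteins modify and guide, and which is cut and folded into the small and the large subunit with ribosomal proteins. Growing and dividing cells make many ribosomes, and the transcription factor Myc is known to drive many genes of this process. Ki-67 itself resides in the nucleolus between divisions and coats the chromosomes in mitosis.

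Several of the 40 genes carry snoRNA genes inside their own transcripts, so host and guest act in the same process. The GENCODE M21 annotation (GRCm38) placed 16 snoRNA genes on the strand of 5 of the 40 genes, 5 in Nop56, 4 in Nop58, 3 in Wdr43, 3 in Gnl3 and 1 in Dkc1. That is 12.5% of the 40 genes, against 1.54% of 14982 protein-coding genes tested. The examples below show the 2 short motifs that the box C/D proteins Nop56, Nop58 and Fbl assemble on. Capitals mark TGATGA (box C) within 15 bases of the 5′ end and CTGA (box D) within 15 bases of the 3′ end, and 6 of the 16 held both. Snord110 lies in Nop56 at chr2:130275506-130275573 (plus strand), Snord11 in Nop58 at chr1:59704790-59704873 (plus strand), Snord92 in Wdr43 at chr17:71631281-71631365 (plus strand) and Snord69 in Gnl3 at chr14:31014287-31014366 (minus strand).
Snord110: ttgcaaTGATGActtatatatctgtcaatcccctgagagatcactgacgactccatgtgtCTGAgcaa
Snord11: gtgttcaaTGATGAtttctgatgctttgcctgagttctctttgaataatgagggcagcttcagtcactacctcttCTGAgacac
Snord92: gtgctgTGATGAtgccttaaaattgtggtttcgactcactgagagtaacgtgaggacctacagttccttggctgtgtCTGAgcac
Snord69: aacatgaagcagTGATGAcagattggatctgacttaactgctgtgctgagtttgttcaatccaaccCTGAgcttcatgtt
The 16 snoRNAs themselves gathered 83 counts in all over the 6 libraries, 8 of them had none, and no comparison of them was made. Those 8, Snord69 among them, overlap annotated exons of their host on the same strand. Pairs that overlap several genes are not counted, so these zeros do not show that the snoRNAs were absent.

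Promoters were read for the CACGTG E-box, the motif that Myc binds together with Max. RefSeq promoter windows on GRCm38.p6, from 250 bases before to 50 bases after the start site, were at hand for 35 of the 40 genes, all but Fbl, Tcof1, Rrp12, Rrs1 and Gnl2. The E-box, which reads the same on both strands, was found in 8 of 35 promoters (22.9%), those of Imp4, Mybbp1a, Nop2, Pes1, Rrn3, Utp20, Utp4 and Wdr43. The share was 10.9% of 12574 promoters of genes tested and 8.09% of all 27025 promoters in the table. The motif CCGGAAG on either strand, which ETS family factors are known to bind, was found in 12 of 35 (34.3%), against 17.3% of genes tested and 9.93% of all promoters. These matches are a description of letters and not of binding. The 4 windows below show the same E-box (capitals) in a gene that rose in the knockout tumors (Utp4, chr8:106893645-106893670, plus strand), in one that fell (Utp20, chr10:88826765-88826787, minus strand) and in a pair that did not pass the test (Pes1, chr11:3963967-3963992, plus strand, and Imp4, chr1:34439698-34439723, plus strand).
Utp4: cgcaagcgcgCACGTGgggccggggc
Utp20: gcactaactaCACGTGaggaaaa
Pes1: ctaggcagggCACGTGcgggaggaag
Imp4: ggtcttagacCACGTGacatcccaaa

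Libraries held 22081970 to 38399826 gene counts, the 3 knockout libraries being the shallowest. Unmapped pairs made up 31.2% to 33.9% of wild-type pairs, and 30.8%, 54.6% and 52.7% of those of knockout replicates 1, 2 and 3. Mki67, the targeted gene, lay at 360, 395 and 325 CPM (counts scaled to a common library size with TMM factors) in wild-type and at 98.7, 117 and 139 CPM in knockout libraries. Its log2 fold change, here always knockout over wild type, was -1.61 (SE 0.14, edgeR quasi-likelihood adjusted p = 6.79e-05), so the transcript was lower but still counted in every knockout library. Over all genes, 19900 were tested, of which 3506 (17.6%) were higher and 3652 (18.4%) lower in knockout tumors at an adjusted p under 0.05, together 36.0%. Each of the 40 genes passed the filter on low counts, with 585 to 9086 counts per library.

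The 40 ribosome biogenesis genes stayed near their wild-type level as a group, while single genes moved in both directions. In the knockout tumors 5 rose (Nop56, Tcof1, Utp4, Nat10 and Noc2l) and 5 fell (Fbl, Heatr1, Utp20, Wdr12 and Ddx21), and 30 did not pass, of which 20 passed under at least 1 of 19 alternatives. That is 12.5% in each direction and 25% in all, a smaller share than the 36.0% of all genes tested, and both shares moved with the alternatives. The median log2 fold change of the 40 genes was -0.04, with an interquartile range of -0.23 to 0.19, and the median over all genes tested was 0.05. The fitted values ran from -0.52 (Ddx21) to 0.47 (Tcof1), so that none reached a 2-fold change, which 19.2% of all genes tested did. The 95% interval of the fold change lay within 2-fold either way for all 40 genes and within 1.5-fold for 31 of them, and within 2-fold for 53.7% of all genes tested. Their counts are higher than those of most genes, with a median over genes of the mean log2 CPM of 5.71 against 3.40, and precision follows counts. Summed over the 40 genes, wild-type libraries held 3047 CPM ± 115 and knockout libraries 2952 CPM ± 180 (SD, n = 3 each). In bulk RNA, fewer cells of a type and less RNA per cell cannot be told apart.

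**Figure D1:**
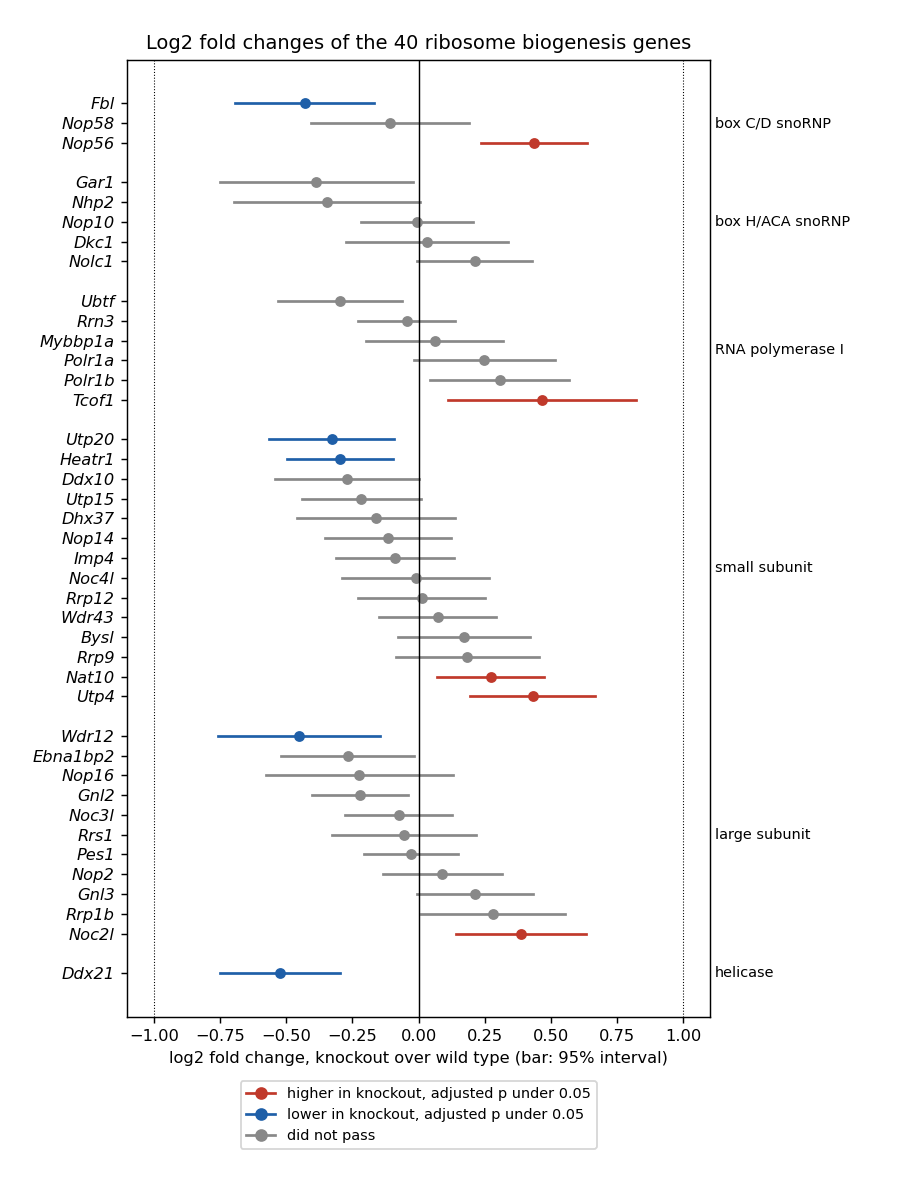
Log2 fold change (knockout over wild type) of the 40 genes by role, with the 95% interval as a bar and dotted lines at a 2-fold change. The 5 genes in red and the 5 in blue passed an adjusted p of 0.05, and every interval ends inside the dotted lines.

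The split of 5 higher and 5 lower was close to that with DESeq2 (6 and 7), RLE size factors (5 and 6) and TMM without mitochondrial and the most abundant genes (6 and 5), but moved with other choices. It was 8 and 3 with library totals alone, 10 and 2 with a stricter filter on low counts, 9 and 3 with a stranded count column, and 1 and 7 with no filter. All genes tested gave 3976 and 3191 of 19900 with library totals and 3367 and 2936 of 13943 with the stricter filter. They gave 3817 and 3198 of 18506 with the stranded column and 3255 and 3996 of 41649 with no filter. Without knockout replicate 1 the split of the 40 genes was 6 and 11, beside 4330 and 4778 of 21024 genes tested. Without wild-type replicate 1 it was 0 and 1, beside 1821 and 2257 of 21144. A correction for the GC trend within every library, an alternative chosen after seeing the data, gave 2 and 12. All 19900 genes tested then gave 2917 and 4783. That alternative moved the median of all genes from 0.05 to -0.06, and the median of the 40 genes lay 0.08 below that of all genes in both cases. This difference was not stable over the other alternatives. The median of the 40 genes minus that of all genes ran from -0.38 with no filter to 0.04 with the stricter filter. None of the 10 genes past the threshold changed direction under any of the 19 alternatives. Ddx21 passed in all 19, Nop56 in 15, Fbl and Utp4 in 13, Tcof1, Utp20 and Wdr12 in 11, Heatr1 and Noc2l in 10 and Nat10 in 8.

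Within the box C/D particle, which methylates ribosomal RNA with snoRNA guides, the 3 proteins went different ways. Nop56 (ENSMUSG00000027405, GRCm38 chr2:130274430-130279313, plus strand), a scaffold protein of the particle, was counted at 128, 124 and 122 CPM in the wild type and at 169, 181 and 156 CPM in the knockout. Every knockout library lay above every wild-type library. Nop56 rose by 0.44 on the log2 scale (SE 0.09, edgeR adjusted p = 0.00584), with group means of 125 CPM ± 2.86 and 169 CPM ± 12.7 (SD, n = 3 each). Nop56 shares 8.12% of its exonic bases with other annotated genes, among them Idh3b on the opposite strand, which had a log2 fold change of 0.12 (edgeR adjusted p = 0.329). Pairs over the shared bases are not counted for either gene. Fbl (ENSMUSG00000046865, GRCm38 chr7:28169710-28179269, plus strand), fibrillarin, the methyltransferase of the same particle, was at 160, 168 and 156 CPM in the wild type and at 140, 110.0 and 108 CPM in the knockout. The groups did not overlap, with knockout replicate 1 nearest to the wild type. Fbl fell by 0.43 on the log2 scale (SE 0.12, edgeR adjusted p = 0.0195). Nop58, the partner scaffold, had a mean of 208 CPM ± 11.1 and 193 CPM ± 35.6 (SD, n = 3 each) and did not pass (log2 fold change -0.11, edgeR adjusted p = 0.537). Without wild-type replicate 1, 2 or 3 the adjusted p was 0.0519, 0.0564 and 0.0551 for Nop56 and 0.0566, 0.0688 and 0.0503 for Fbl, and without knockout replicate 3 it was 0.0679 for Fbl. With a covariate for the unmapped share the log2 fold change of Fbl was -0.23 (adjusted p = 0.0848), and with no filter that of Nop56 was 0.36 (adjusted p = 0.0597).

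Of the 5 genes of the box H/ACA particle and its assembly, which convert uridine to pseudouridine in ribosomal RNA, none passed. Gar1, a core protein of the particle, had the smallest p of this role. It lay at 58.6, 62.2 and 58.1 CPM in the wild type and at 58.5, 41.6 and 36.6 CPM in the knockout. Knockout replicate 1 fell inside the wild-type range and the other two lay well below it. The log2 fold change of Gar1 was -0.39 (SE 0.16, edgeR adjusted p = 0.0905), and over the 19 alternatives it ran from -0.62 (without knockout replicate 1, adjusted p = 0.00135) to -0.085 (unmapped share as a covariate, adjusted p = 0.594). Nhp2, another core protein, showed the same order of libraries, with 97.3 CPM in knockout replicate 1 and 68.8 and 67.1 CPM in the other two, against 86.9 to 107 CPM in the wild type. Its log2 fold change was -0.34 (edgeR adjusted p = 0.113), with -0.55 without knockout replicate 1 (adjusted p = 0.00382) and a highest adjusted p of 0.662 over the alternatives, where it reached -0.084. Nop10, the smallest core protein, had -0.01 (95% interval -0.22 to 0.20), and Dkc1, the pseudouridine synthase dyskerin, had 0.03 (95% interval -0.28 to 0.34). Nolc1, a chaperone of snoRNPs, had 0.21 (edgeR adjusted p = 0.115).

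Among the 6 genes of RNA polymerase I transcription, Tcof1 rose and 5 did not pass. Tcof1 (ENSMUSG00000024613) encodes treacle, a nucleolar protein that links ribosomal DNA transcription to precursor processing. It lay at 53.3, 57.8 and 53.5 CPM in the wild type and at 59.5, 95.1 and 73.0 CPM in the knockout. The groups did not overlap, but knockout replicate 1 stood close to the wild type and replicate 2 far above it. Its log2 fold change was 0.47 (SE 0.16, edgeR adjusted p = 0.0457). Without knockout replicate 2 it was 0.22 (adjusted p = 0.105), in the fit with a term for the unmapped share 0.15 (adjusted p = 0.433), and with the GC trend removed 0.19 (adjusted p = 0.196). Its adjusted p was also above the threshold without knockout replicate 3 (0.105) and without wild-type replicate 1, 2 or 3 (0.184, 0.121 and 0.163). Ubtf, the upstream binding factor that opens ribosomal DNA for transcription, lay at 231, 241 and 242 CPM in the wild type and at 218, 190.0 and 173 CPM in the knockout. All knockout libraries lay below the wild type, yet the test was just missed (log2 fold change -0.30, SE 0.10, edgeR adjusted p = 0.052). It passed in 6 of the 19 alternatives, among them DESeq2 and the fits without knockout replicate 1 or 2 (adjusted p = 0.0243, 0.00482 and 0.0486), and over all 19 it ran from -0.51 to -0.15 with a highest adjusted p of 0.265. Polr1a and Polr1b, the subunits that form the catalytic core of the enzyme, had log2 fold changes of 0.25 and 0.31 (edgeR adjusted p = 0.127 and 0.0674), and Polr1b, too, passed in 6 of the 19 alternatives. Rrn3, the initiation factor that brings the polymerase to the promoter, had -0.04 (95% interval -0.23 to 0.14), and Mybbp1a, a nucleolar protein that associates with the polymerase, had 0.06 (95% interval -0.20 to 0.32).

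The small subunit processome, the particle that forms on the early precursor, and later small subunit maturation had 14 genes, of which 2 rose, 2 fell and 10 did not pass. Utp4 (ENSMUSG00000041438, GRCm38 chr8:106893636-106923088, plus strand), a member of the subcomplex that binds the precursor first, lay at 51.1, 57.9 and 53.2 CPM in the wild type and at 66.8, 81.8 and 70.2 CPM in the knockout. The groups were separate, and Utp4 rose by 0.43 on the log2 scale (SE 0.10, edgeR adjusted p = 0.0126). Heatr1 (ENSMUSG00000050244, GRCm38 chr13:12395027-12440289, plus strand), a very large protein of the same subcomplex, lay at 50.3, 54.4 and 47.9 CPM in the wild type and at 41.0, 42.5 and 40.7 CPM in the knockout. Its knockout libraries were close together and all below the wild type, and Heatr1 fell by 0.30 on the log2 scale (SE 0.09, edgeR adjusted p = 0.0285). Thus 2 proteins of one subcomplex passed in opposite directions, while its member Utp15 had -0.22 (edgeR adjusted p = 0.119). Nat10 (ENSMUSG00000027185, GRCm38 chr2:103721256-103761270, minus strand), the acetyltransferase of small subunit ribosomal RNA, lay at 41.9, 43.5 and 40.01 CPM in the wild type and at 48.1, 54.0 and 49.4 CPM in the knockout. The groups did not overlap and Nat10 rose by 0.27 on the log2 scale (SE 0.09, edgeR adjusted p = 0.0417). Utp20 (ENSMUSG00000004356, GRCm38 chr10:88746607-88826804, minus strand), a late processome scaffold, lay at 69.7, 76.7 and 66.3 CPM in the wild type and at 53.8, 63.1 and 52.6 CPM in the knockout. All knockout libraries were below the wild type, and Utp20 fell by 0.33 on the log2 scale (SE 0.10, edgeR adjusted p = 0.0372).

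The other genes of this role had log2 fold changes between -0.27 and 0.18. They were Ddx10 (-0.27) and Dhx37 (-0.16), both RNA helicases, Nop14 (-0.12) and its partner Noc4l (-0.01), Imp4 (-0.09) and Rrp9 (0.18), both proteins of the U3 particle, Wdr43 (0.07), a processome protein, and Rrp12 (0.01) and Bysl (0.17), which act on the maturing small subunit. Calls of this role were sensitive to the processing and to single libraries. With the stranded column the log2 fold change was -0.18 for Heatr1 (adjusted p = 0.143) and -0.27 for Utp20 (0.0544). With a covariate for the share outside exons it was -0.29 for Heatr1 (0.112) and -0.24 for Utp20 (0.212). Neither passed with library totals alone or with the stricter filter. Without wild-type replicate 1, 2 or 3 the adjusted p was 0.112, 0.0514 and 0.076 for Utp4 and 0.216, 0.158 and 0.256 for Nat10, and without wild-type replicate 1 or 2 it was 0.106 and 0.14 for Heatr1 and 0.12 and 0.159 for Utp20. Without knockout replicate 3 it was 0.095 for Nat10, 0.088 for Heatr1 and 0.137 for Utp20, without knockout replicate 2 it was 0.129 for Nat10, and without knockout replicate 1 it was 0.0569 for Utp20. With only libraries under 40% unmapped the log2 fold change was 0.24 for Utp4 (adjusted p = 0.0635) and 0.14 for Nat10 (0.236), and with the GC trend removed it was 0.15 for Nat10 (0.187).

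**Figure D2:**
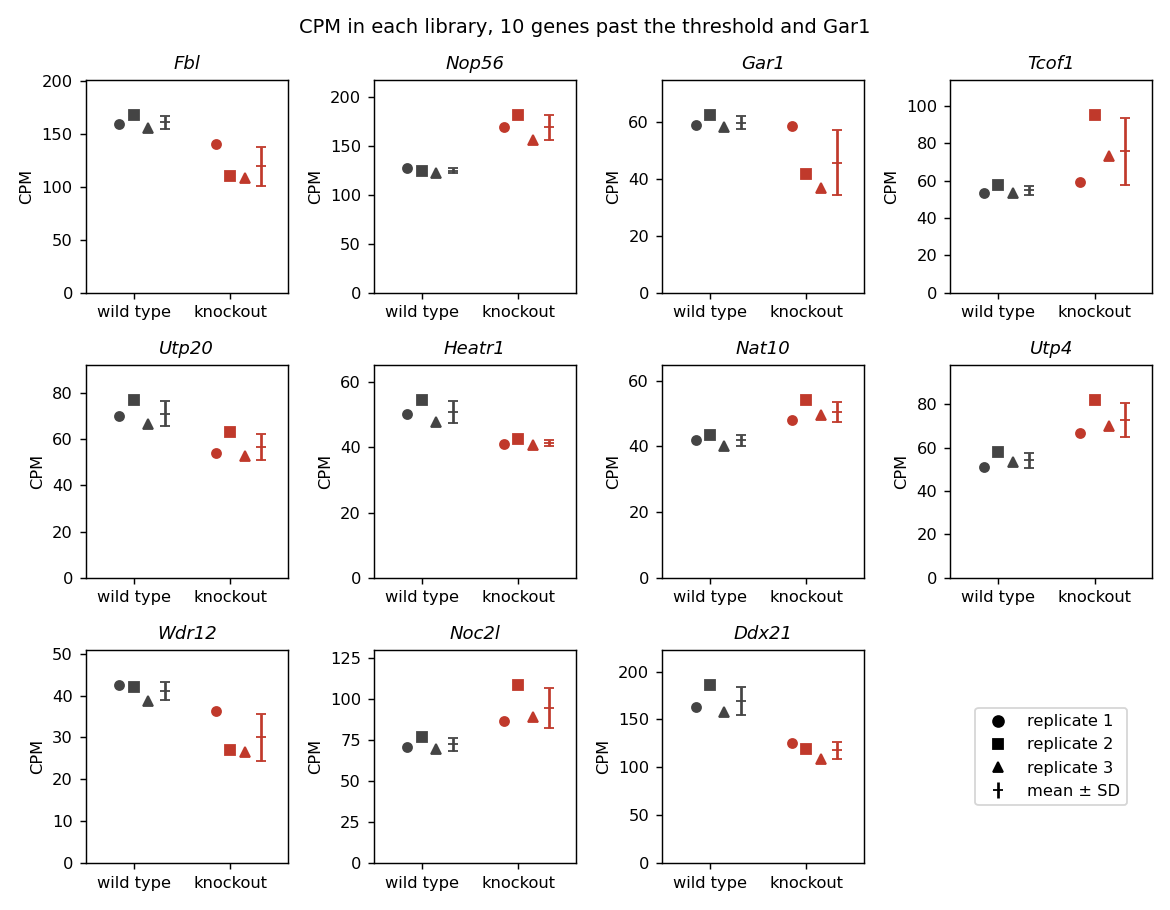
CPM in each library (vertical axes from 0) of the 10 genes past the threshold and of Gar1, with the group mean ± SD (n = 3) beside the points. The groups do not overlap for the 10 genes, and knockout replicate 1 lies nearest to the wild type for Fbl, Gar1, Tcof1, Utp4, Nat10, Wdr12, Noc2l and Ddx21.

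Large subunit maturation had 11 genes, of which 1 rose and 1 fell. Noc2l (ENSMUSG00000095567, GRCm38 chr4:156236010-156247616, plus strand), a protein that accompanies the early large subunit precursor, lay at 70.4, 76.6 and 69.5 CPM in the wild type and at 86.1, 108 and 88.9 CPM in the knockout. Each knockout library exceeded each wild-type library, and Noc2l rose by 0.39 on the log2 scale (SE 0.11, edgeR adjusted p = 0.0227). It is the only one of the 40 genes with over 10% of its exonic bases shared with another gene. The share is 20.9%, with Samd11 on the opposite strand. Pairs over the shared bases are counted for neither gene, so the values of both come from their unshared bases. Samd11 itself had 0.332 CPM ± 0.015 (wild type) and 0.354 CPM ± 0.26 (knockout, SD, n = 3 each), and 22 of the 40 genes share no exonic base. Wdr12 (ENSMUSG00000026019, GRCm38 chr1:60069785-60098645, minus strand), which forms a complex with Pes1 that large subunit processing needs, lay at 42.4, 42.1 and 38.7 CPM in the wild type and at 36.4, 27.0 and 26.6 CPM in the knockout. Knockout replicate 1 lay just below the wild type and the other two much lower. Wdr12 fell by 0.45 on the log2 scale (SE 0.13, edgeR adjusted p = 0.0293), whereas Pes1 had -0.03 (95% interval -0.21 to 0.15).

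The other 8 genes of this role besides Pes1 had values from -0.27 to 0.28 and did not pass. Rrp1b, a nucleolar processing factor, had 0.28 (edgeR adjusted p = 0.0966), and Gnl3, the GTPase nucleostemin, had 0.21 (adjusted p = 0.118), both with all knockout libraries above the wild type. Gnl2, a related GTPase, lay at 66.6, 65.7 and 64.1 CPM in the wild type and at 54.6, 58.7 and 55.2 CPM in the knockout. Its groups did not overlap and its log2 fold change was -0.22 (SE 0.08, edgeR adjusted p = 0.06). Ebna1bp2, an assembly factor, had -0.27, Nop16 -0.22, Noc3l, a partner of Noc2l, -0.07, Rrs1, a factor of the particle with the smallest ribosomal RNA, -0.06, and Nop2, a methyltransferase of large subunit RNA, 0.09. Without wild-type replicate 1, 2 or 3 the adjusted p was 0.149, 0.0825 and 0.128 for Noc2l and 0.0905, 0.0852 and 0.0594 for Wdr12. Without knockout replicate 2 that of Noc2l was 0.0581, and without knockout replicate 3 it was 0.05003 for Noc2l, just above the threshold, and 0.0942 for Wdr12. With only libraries under 40% unmapped the log2 fold change was 0.19 for Noc2l (adjusted p = 0.108) and -0.24 for Wdr12 (0.0744), and with the GC trend removed it was 0.14 for Noc2l (0.227).

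Ddx21 (ENSMUSG00000020075, GRCm38 chr10:62580251-62602281, minus strand), an RNA helicase that acts in both ribosomal DNA transcription and precursor processing, had the largest decrease of the 40 genes. It lay at 163, 186 and 158 CPM in the wild type and at 126, 119 and 108 CPM in the knockout. No knockout library came near the wild-type range. The means of Ddx21 were 169 CPM ± 14.5 and 118 CPM ± 8.66 (SD, n = 3 each), and it fell by 0.52 on the log2 scale (SE 0.10, 95% interval -0.75 to -0.30, edgeR adjusted p = 0.00442). Over the 19 alternatives it ranged from -0.62 to -0.44, with a highest adjusted p of 0.036.

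For 19 of the 40 genes (47.5%) wild-type and knockout values were separate, with knockout above in 9 and below in 10, against 50.5% of all genes tested. The 3 knockout libraries differed from one another in which genes were high. Knockout replicate 2 was the highest of the 3 for 25 of the 40 genes, replicate 1 for 15 and replicate 3 for none, and replicate 3 was the lowest for 21. For Nop58, Dkc1 and Nop16, knockout replicate 1 lay above all wild-type libraries and replicates 2 and 3 below them all. Nop58 had 234 CPM in knockout replicate 1 and 168 and 177 CPM in replicates 2 and 3, with 195 to 215 CPM in the wild type. Replicate 1 has the unmapped share of the wild-type libraries and replicates 2 and 3 the higher one. With the unmapped share as a covariate, 2 of the 40 genes were higher and 2 lower, beside 2333 and 3038 of all 19900. Of the 10 genes, 3 passed again. With only the 4 libraries under 40% unmapped, and the lone knockout library taken to vary like the wild type, 4 genes were higher and 9 lower, and 5 of the 10 genes passed again, namely Nop56, Fbl, Heatr1, Utp20 and Ddx21. The median over the 40 genes of log2 CPM relative to the wild-type mean was -0.02, 0.03 and -0.08 in knockout replicates 1, 2 and 3, and -0.01, 0.05 and -0.06 in the wild-type libraries. The knockout libraries stood in the same order over 14626 genes tested with a wild-type mean of at least 1 CPM. There the medians were -0.08, -0.05 and -0.14 in knockout replicates 1, 2 and 3.

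**Figure D3:**
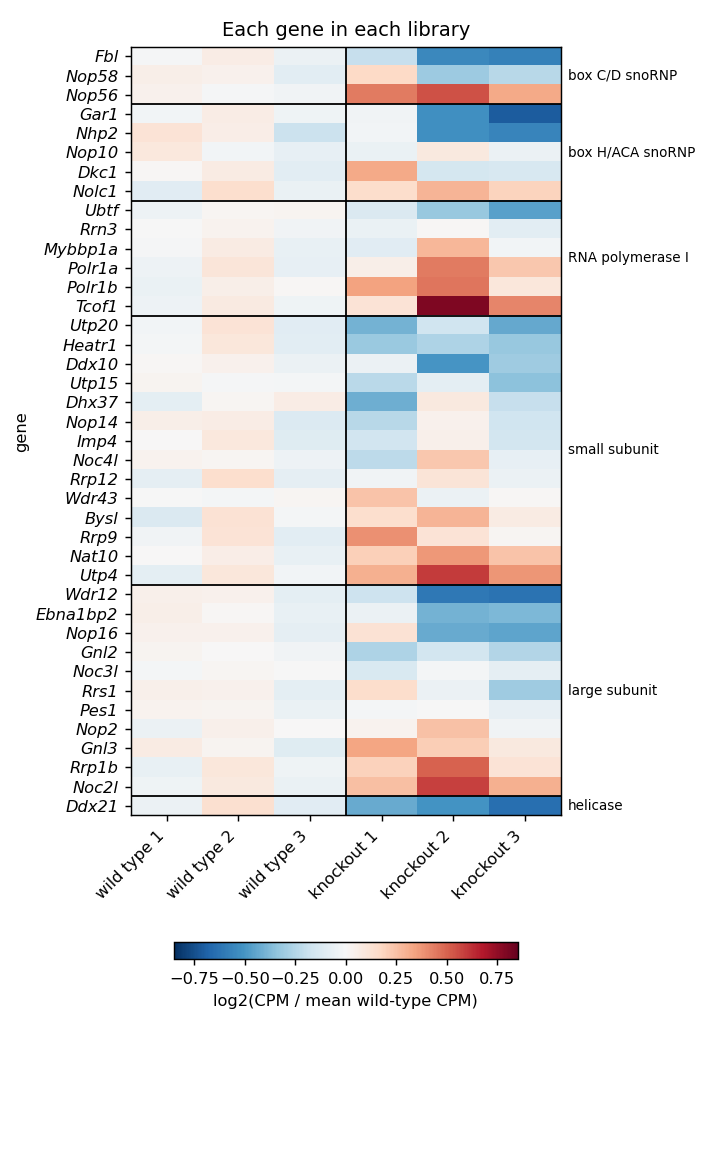
Log2 of CPM over the mean wild-type CPM for each of the 40 genes (rows, by role) in each library (columns), red above and blue below the wild-type mean. The knockout columns hold both colours in every role with several genes, and replicate 1 differs from replicates 2 and 3 for genes such as Nop58, Dkc1, Gar1 and Nhp2.

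The levels of the 40 genes can be compared only per length, so CPM was divided by the exon length in kilobases (GENCODE M21 basic transcripts, 1042 bp for Nhp2 to 10613 bp for Wdr12). In wild-type libraries the highest level was that of Fbl, 135 CPM per kb ± 5.24, then Nhp2 with 94.8 ± 10.1, Nop56 with 65.4 ± 1.498 and Mybbp1a with 50.7 ± 2.35 (SD, n = 3 each). The lowest were Wdr12 with 3.87 CPM per kb ± 0.19, Polr1a with 4.56 ± 0.31 and Polr1b with 5.08 ± 0.19. Thus 3 snoRNP proteins led the order, while Nop58, also of box C/D, had 21.8 ± 1.17 and the polymerase subunits stood near its bottom. This order depends on the length used, which joins the exons of all basic transcripts of a gene. That length was 9539 bp for Nop58 and 1907 bp for Nop56, whose wild-type means before division were 208 and 125 CPM. In knockout libraries Fbl had 99.9 CPM per kb ± 15.1, Nop56 88.5 ± 6.67 and Nhp2 74.6 ± 16.3, and these neighbours lay within each other's spread. The order of the wild type, Fbl before Nhp2 before Nop56, was wider than the spread.

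**Figure D4:**
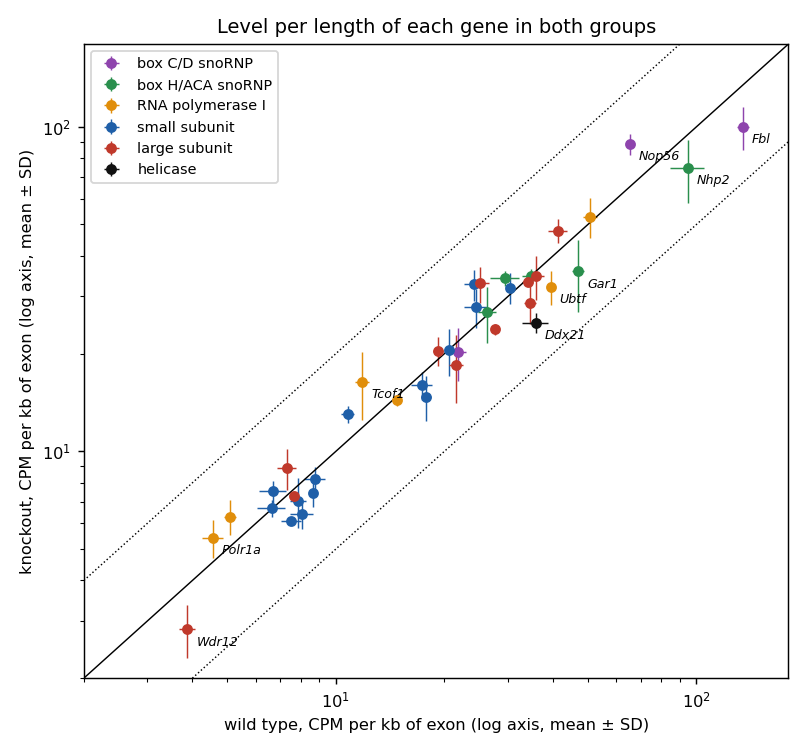
Mean CPM per kb of exon in knockout (vertical, log axis) against wild-type libraries (horizontal, log axis) for the 40 genes, with SD bars (n = 3), the line of equal levels and dotted lines at 2-fold. Every gene lies between the dotted lines, from Wdr12 at 3.87 and 2.83 CPM per kb to Fbl at 135 and 99.9.

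GC content was taken over all annotated transcripts of a gene, weighted by their length. It had overlapping ranges in the genes that rose and fell, and their medians were not tested. It was 48.1% to 58.5% (median 51.0%) for the 5 that rose, 42.8% to 54.3% (median 46.8%) for the 5 that fell and 42.0% to 58.7% (median 50.6%) for the 30 that did not pass. Across the 40 genes, which share the 6 libraries, GC content and log2 fold change had Pearson's r of 0.24 and Spearman's rho of 0.22, and rho was 0.13 across all genes tested. In knockout replicate 2 alone rho was 0.33 across the 40 genes, and in replicates 1 and 3 it was 0.11 and 0.19, where all genes tested gave 0.30 in replicate 2 and 0.017 and 0.073 in replicates 1 and 3. Genes are not independent replicates, and these values are descriptions. The 40 genes lie on 18 chromosomes.

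A wider list of 98 other ribosome biogenesis genes, of which 97 were tested, held 9 that rose and 22 that fell (31.96% of those tested), with a median log2 fold change of -0.15. With the GC trend removed, the counts were 4 and 34. Its sub-lists had 1 higher and 3 lower of 14 for RNA polymerase I, 4 and 9 of 40 for the small subunit and 4 and 10 of 43 tested for the large subunit. Some of these genes changed more than any of the 40. Nob1, the nuclease that trims the small subunit RNA at its end, lay at 40.7, 41.2 and 40.8 CPM in the wild type and at 79.0, 69.4 and 64.7 CPM in the knockout (log2 fold change 0.80, SE 0.10, edgeR adjusted p = 0.000457). Las1l, a nuclease that cuts the spacer of the large subunit precursor, rose by 0.71 (adjusted p = 0.000742), and Urb2, a large subunit factor, by 0.45. Ddx49 and Ddx47, both RNA helicases, rose by 0.51 and 0.38.

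Znhit6, an assembly factor of box C/D snoRNPs, lay at 56.0, 63.5 and 59.6 CPM in the wild type and at 35.3, 28.4 and 25.1 CPM in the knockout, with no overlap. It fell by 1.01 on the log2 scale (SE 0.13, edgeR adjusted p = 0.000673), the only one of the 97 past 2-fold. Mdn1, a giant ATPase that remodels large subunit precursors, fell by 0.89 (SE 0.11, adjusted p = 0.000504), from 77.4, 85.6 and 71.5 CPM to 40.8, 47.2 and 38.7 CPM. Utp23, a small subunit processome factor, fell by 0.91, and Sdad1 and Tex10, large subunit factors, by 0.47 and 0.39. Nob1, Las1l, Mdn1, Znhit6 and Utp23 passed in all 19 alternatives. Without wild-type replicate 1 the adjusted p was 0.0788 for Urb2 and 0.091 for Ddx47, without wild-type replicate 2 it was 0.103 for Ddx47 and 0.0502 for Tex10, and without wild-type replicate 3 it was 0.0643 for Urb2 and 0.0545 for Ddx47.

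Of 72 cytosolic ribosomal protein genes, the products that the 40 genes help to assemble, 4 rose and 4 fell (11.1%), with a median log2 fold change of -0.09. Rps2 rose by 0.65 and Rpl13 by 0.55 on the log2 scale, and Rpl13a fell by 0.45 (edgeR adjusted p = 0.00217, 0.00729 and 0.0192). The knockout libraries did not share a direction here either: the median over the 72 genes relative to the wild-type mean was 0.16 in replicate 1, -0.31 in replicate 2 and -0.17 in replicate 3. Many ribosomal protein genes have near-identical pseudogene copies, whose shared read pairs were not counted. Without knockout replicate 1 the number of genes that fell was 34, and with the replicate number as a block it was 14. Rpl13 did not pass without wild-type replicate 3 (adjusted p = 0.0752), nor Rpl13a without wild-type replicate 1 (0.0803).

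**Figure D5:**
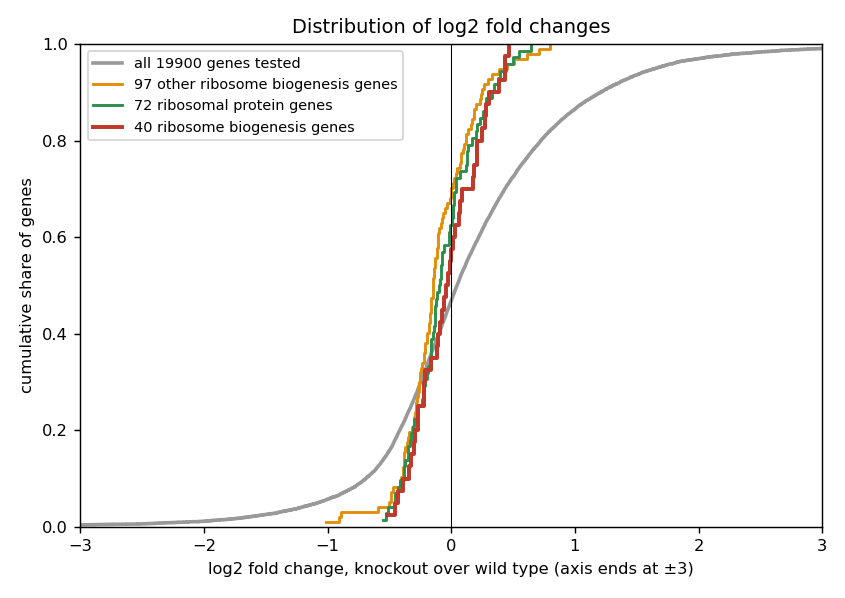
Cumulative share of genes (vertical) by log2 fold change, knockout over wild type (horizontal), for the 40 genes, 97 other ribosome biogenesis genes, 72 ribosomal protein genes and all 19900 genes tested. The 40 genes span -0.52 to 0.47 around a median of -0.04, and the curve of all genes has longer tails on both sides.

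Of 12 genes of the Myc network, the transcription factors that bind E-boxes or pair with those that do, 3 rose and 3 fell. That is 50% of this short list, against 36.0% of all genes tested. Myc itself lay at 113, 112 and 121 CPM in the wild type and at 177, 203 and 172 CPM in the knockout. All knockout libraries were above the wild type, and Myc rose by 0.67 on the log2 scale (SE 0.09, edgeR adjusted p = 0.00095) and passed in all 19 alternatives. Mycl, a relative of Myc, rose by 1.46 from low levels of 1.52 to 1.93 CPM, and Mxd1, an antagonist that also pairs with Max, rose by 1.04. Max, the shared partner, fell by 0.50 (95.3 to 96.5 CPM in wild-type, 62.9 to 73.9 CPM in knockout libraries), Mga by 0.53 and Mnt, another antagonist, by 0.44. Mnt had an adjusted p of 0.0439 and did not pass without wild-type replicate 1, 2 or 3 (0.114, 0.105 and 0.0845) or without knockout replicate 1 or 3 (0.0637 and 0.141). Mycn, Mxd3, Mxd4, Mxi1, Mlx and Zbtb17 did not pass, with log2 fold changes of 0.78, 0.11, -0.29, 0.24, -0.27 and 0.14. Of the 8 genes with an E-box in the promoter window, Utp4 rose, Utp20 fell and 6 did not pass.

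Summed markers of cell types lay apart between the groups in every list below except the endothelial one. Summed over 6 epithelial markers, of which 5 rose, the wild-type libraries held 2814 to 2932 CPM and the knockout libraries 5458 to 5831 CPM. Of 8 macrophage markers all fell, with sums of 4864 to 5795 CPM and 821 to 940 CPM, and of 5 natural killer cell markers 4 were tested and fell, with sums of 33.5 to 45.6 CPM and 0.83 to 1.205 CPM and Prf1 at 0 in knockout replicate 2. Of 6 fibroblast markers 5 rose and 1 fell (3129 to 3978 CPM and 5268 to 10325 CPM), all 5 adipocyte markers rose (79.2 to 121 CPM and 301 to 812 CPM) and all 5 keratinocyte markers rose (69.5 to 123 CPM and 712 to 1571 CPM). Of 5 neutrophil markers 2 rose (220 to 264 CPM and 294 to 416 CPM), of 5 endothelial markers 1 rose (201 to 280 CPM and 191 to 261 CPM) and of 5 skeletal muscle markers 4 rose (38.4 to 47.3 CPM and 48.8 to 57.4 CPM). The part of these cells in the values of the 40 genes was not tested. Of the epithelial markers of the labelled carcinoma, Krt8 was counted in all 6 libraries at 1397 to 1850 CPM and Krt18 at 1055 to 1499 CPM. Over the 6 epithelial markers the log2 fold change ran from 0.18 to 5.32, with a median of 2.48, and 4 reached 2-fold.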

How the data were processed

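Bulk RNA of 4T1 tumors was sequenced in 3 libraries labelled wild type and 3 labelled Mki67 knockout, grouped by the sample titles. The deposited tables give raw, unscaled counts per gene, each count being a read pair, in 1 unstranded and 2 stranded columns. FastQC, STAR 2.6.0c, DESeq2 and GRCm38 are named per the submitters' processing notes, and the gene annotation is not given in the sources used here. In this layout, pairs that map to several places or overlap several genes are not counted. The first strand held 50.1% to 50.2% of stranded counts, so the unstranded column was used. The 4 rows that name no gene stayed out of library sizes and tests: unmapped pairs (30.8% to 54.6% of pairs), multimapping pairs (3.12% to 4.39%), and pairs outside exons (9.24% to 18.9% of unique pairs) or ambiguous between genes (4.98% to 6.23%).

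Identifiers were matched to GENCODE M21 (54079 of 54146 rows). The test was edgeR's (version 4.0.16, under R 4.3.3) quasi-likelihood F test on counts (filterByExpr, TMM, estimateDisp, glmQLFit and glmQLFTest, not robust), with Benjamini-Hochberg adjustment over 19900 genes and a threshold of 0.05. SE is the absolute log2 fold change over the square root of F, and 95% intervals use the t distribution of the fit. CPM uses TMM factors. A count of 0 allows 3 counts, or 0.0781 to 0.136 CPM, for counting error only. In the list of other biogenesis genes, 3 were matched by an older symbol and 1 by a RefSeq synonym.

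The 40 genes, the lists and the tests were chosen with earlier results of these data known. By rule, values per library are given for genes past the threshold and for the smallest p in a role without one; Nop58, Nhp2, Ubtf and Gnl2 were added after their values were seen. Of the other lists, the smallest p in each direction are named (5 for other biogenesis genes, 2 for ribosomal proteins, of which 1 is not reported here). Alternatives were DESeq2 1.42.0, RLE factors, library totals, TMM without mitochondrial and the 20 most abundant genes, no filter, at least 50 counts in every library of a group, a stranded column, a robust fit, each replicate left out, the replicate block, covariates for the unmapped and outside-exon shares, only libraries under 40% unmapped and, added after seeing the data, removal of each library's GC trend. The fit was tested on simulated data.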

Additional observations from a re-analysis of the deposited data

How the results depend on the processing

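Each of the 10 called genes and Mki67 kept its direction in all 19 alternatives. For the 40 genes, the numbers higher and lower were 8 and 3 with library totals, 1 and 7 with no filter, 10 and 2 with a stricter filter, 9 and 3 with the stranded column, 2 and 2 with the unmapped share as covariate, 6 and 1 with the share outside exons, 4 and 9 with only libraries under 40% unmapped and 2 and 12 with the GC trend removed. Leaving out 1 replicate gave 0 to 6 higher and 1 to 11 lower. Their median was 0.021 with library totals, -0.12 with no filter, 0.046 with the stricter filter, 0.032 with the stranded column, -0.14 with the GC trend removed, and -0.11 to 0.0002 over the left-out replicates. Deviations from the group means correlated at 0.05, -0.21 and -0.24 between same-numbered libraries and at -0.10 to 0.25 between different-numbered ones. No pairing was visible, but with 3 libraries per group this check cannot decide on it. The replicate block is therefore only an alternative. It gave 4 higher and 6 lower of the 40 genes, and 14 lower ribosomal protein genes.

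Of all genes, 2333 were higher and 3038 lower with the unmapped share as covariate, and 2828 and 2238 with the share outside exons. Leaving out 1 replicate gave 1821 to 4648 higher and 2257 to 4778 lower. Other biogenesis genes were higher in number 4 (no filter), 14 (under 40% unmapped) and 4 (GC), and lower in 14 (stricter filter), 12 (stranded), 12 (unmapped), 6 (outside exons) and 34 (GC), with 3 to 8 higher and 5 to 41 lower over left-out replicates. Ribosomal proteins higher and lower numbered 9 and 10 with DESeq2, 9 and 2 with library totals, 7 and 2 with TMM without the top genes, 12 and 2 with the stricter filter, 9 and 2 with the stranded column, 13 and 2 (unmapped), 1 and 0 (outside exons), 17 and 2 (under 40% unmapped) and 1 and 12 (GC). With no filter 15 were lower, and left-out replicates gave 1 to 7 and 1 to 34. Myc network genes lower numbered 5 with GC removed and 2 to 5 over left-out replicates.

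Of the 30 genes not called, 16 changed the sign of their log2 fold change under some alternative, none past the threshold in the new direction. Of these 30, 20 passed the threshold under some alternative and 10 under none. With library totals the genes of changed sign were Nop10 0.052, Noc4l 0.046, Pes1 0.028 and Rrn3 0.013. Without the top genes in TMM they were Nop10 0.027, Noc4l 0.02 and Pes1 0.0046. With no filter they were Dkc1 -0.057, Mybbp1a -0.0147, Wdr43 -0.0154 and Rrp12 -0.069. With the stricter filter they were Nop10 0.077, Noc4l 0.0695, Rrn3 0.038, Pes1 0.054, Noc3l 0.0084 and Rrs1 0.025. With the stranded column they were Nop10 0.048, Noc4l 0.064, Noc3l 0.034 and Rrs1 0.031. With the unmapped share they were Nop58 0.125, Nop16 0.068, Rrs1 0.106, Mybbp1a -0.093 and Rrp12 -0.027. With the share outside exons they were Nop10 0.0475, Noc4l 0.111 and Rrs1 0.044. Under 40% unmapped they were Nop58 0.103, Nop16 0.059, Rrs1 0.084, Polr1a -0.0148, Mybbp1a -0.164, Rrp12 -0.092 and Nop2 -0.034. With the GC trend removed they were Mybbp1a -0.137, Rrp9 -0.065, Rrp12 -0.226, Bysl -0.0131 and Nop2 -0.138, besides Mxd3 -0.147 and Zbtb17 -0.112. Left-out replicates gave Dkc1 -0.151 to 0.102, Nop10 -0.097 to 0.0169, Mybbp1a -0.108 to 0.128, Wdr43 -0.030 to 0.098, Noc4l -0.194 to 0.079, Rrp12 -0.085 to 0.062, Nop2 -0.043 to 0.1425 and Rrs1 -0.177 to 0.048. The cause was not tested. Groups of 3 limit every call, and knockout replicates 2 and 3 combine fewer counts with more unmapped pairs.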
